A study of Homo sapiens with 24 samples.

Results

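The 35 genes described here belong to the integrated stress response and the unfolded protein response, and were taken as a listed set of ATF4 and endoplasmic reticulum (ER) stress genes from the 28277 genes of each count table. All 35 were counted in both tables and all 35 passed the filter on low counts. They were followed by poly(A) RNA-seq in PEO1 and PEO4, a pair of human ovarian adenocarcinoma lines that are drug-sensitive and drug-resistant, respectively, over 8 conditions with 3 biological replicates each (24 libraries). In the A pair, untreated PEO1 A cells, labelled wild type and deficient in BRCA2 by the study's design, were compared with untreated PEO4 A cells, labelled wild type and BRCA2-proficient. In the B pair, PEO1 B cells, labelled BRCA2+ after a spontaneous reversion of BRCA2, and PEO4 B cells, again labelled wild type, were profiled untreated and after 2 or 6 h in medium with 5 µM pyridostatin (PDS), a small molecule that stabilizes G-quadruplex DNA. The same untreated libraries served as controls for both times, and no solvent control was labelled. Culture medium was supplemented with pyruvate for the A pair only.

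In the integrated stress response, 4 kinases each sense a different stress and phosphorylate the translation factor eIF2alpha. General translation then slows while the mRNA of ATF4 is translated better, and ATF4 with its C/EBP and CHOP partners switches on genes for amino acid supply, redox control and feedback. The unfolded protein response shares the kinase PERK with this pathway, and its XBP1 and ATF6 branches raise ER chaperones and degradation factors. Because ATF4 is controlled largely by translation, and the kinases by phosphorylation, RNA levels report on the output of the pathway and on the supply of its components, not on kinase activity.

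These target genes are recognized by short promoter elements, and 29 of the 35 members had a promoter sequence (250 bases before to 50 after an annotated start, RefSeq, GRCh38.p14). Where RefSeq lists several starts the first entry was used, as for 10 members, and for 6 members the start used lies inside the full span of the gene. For ASNS it is at base 97872408 of chromosome 7, which is 56033 bases inside, and for SLC3A2 it is 25590 bases inside. The C/EBP-ATF composite element TGATGNAA, searched on both strands, was present in 7 of the 29 (24.1%), in ASNS, ATF3, CHAC1, HERPUD1, PPP1R15B, SLC3A2 and SLC7A1, against 3.67% of all 27305 promoters. The ER stress element (CCAAT and CCACG with 9 bases between them) was found in HSPA5 and XBP1, and in 0.0806% of all promoters. The ER stress element II (ATTGG and CCACG with 1 base between them) was found in HERPUD1 and SDF2L1, and in 0.0549% of all promoters. The element TGACGTGG, which ends in the complement of CCACG, occurred in 0 of the 29 and in 0.795% of all promoters. No matched stretch overlapped another. The stretches below, each 100 bases on the strand of the gene, show 1 match or more per gene in capitals and were chosen to show an element of each arm in members described below. HERPUD1 alone among the 29 held elements of both arms.
ATF3 at chr1:212565170-212565269, plus strand, with TGATGNAA: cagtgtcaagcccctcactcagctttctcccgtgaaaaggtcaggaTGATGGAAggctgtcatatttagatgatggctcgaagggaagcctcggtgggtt
CHAC1 at chr15:40953221-40953320, plus strand, with TGATGNAA read on the other strand: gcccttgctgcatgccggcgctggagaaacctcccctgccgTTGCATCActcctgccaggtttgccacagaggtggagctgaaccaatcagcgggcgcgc
ASNS at chr7:97872423-97872522, minus strand, with TGATGNAA: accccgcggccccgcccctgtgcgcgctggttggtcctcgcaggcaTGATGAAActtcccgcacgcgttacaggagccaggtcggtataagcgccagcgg
HERPUD1 at chr16:56931951-56932050, plus strand, with TGATGNAA on the other strand and then ER stress element II: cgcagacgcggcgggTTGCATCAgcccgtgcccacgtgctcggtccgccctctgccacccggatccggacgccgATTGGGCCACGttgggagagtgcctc
SDF2L1 at chr22:21642070-21642169, plus strand, with ER stress element II on the other strand: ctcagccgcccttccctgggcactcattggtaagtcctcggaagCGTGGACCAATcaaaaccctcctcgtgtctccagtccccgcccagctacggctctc
HSPA5 at chr9:125241350-125241449, minus strand, with the ER stress element: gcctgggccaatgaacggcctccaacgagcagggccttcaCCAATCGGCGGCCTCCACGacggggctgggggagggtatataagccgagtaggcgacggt
XBP1 at chr22:28800570-28800669, minus strand, with the ER stress element: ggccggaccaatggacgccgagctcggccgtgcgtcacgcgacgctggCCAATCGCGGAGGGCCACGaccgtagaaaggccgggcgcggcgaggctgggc

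The libraries of the A pair held 32528913 to 63882077 counts assigned to genes. In the B pair the untreated libraries held 18699929 to 22375644 and the PDS libraries 33260167 to 43713947, and ribosomal RNA genes took 0.217 to 0.474% of the counts in untreated B libraries against 0.0163 to 0.0369% in PDS libraries. These properties separated untreated from treated libraries completely, so that in every contrast with untreated cells they and the drug cannot be told apart, whereas 6 h and 2 h libraries were alike in both. The ovarian carcinoma markers summed to 5459 to 14317 CPM (counts scaled to a common library size) in the 24 libraries, although SOX17 had at most 2 counts in the B table, and the markers of other cell types summed to 37.5 to 92.1 CPM, with CD3E and CHGA at 0. In PEO4 B, 4 of 8 tested markers of other cell types were called lower in each PDS contrast and 1 was called higher at 2 h. The summed level of the list was 73.2 to 78.9 CPM untreated, 82.0 to 92.1 CPM at 2 h and 74.1 to 82.9 CPM at 6 h. CD68 was the largest part of that sum, averaging 42.4, 72.4 and 72.4 CPM in that order. Other markers took other courses. COL1A1 averaged 22.1, 5.87 and 2.80 CPM, COL3A1 6.80, 0.930 and 0.567 CPM, and CD14 2.00, 5.90 and 2.01 CPM. What part these markers had in the results was not tested. Of all genes, 11% were called lower in PEO4 B at 2 h, 16.3% at 6 h and 9.71% from 2 h to 6 h. At 2 h 6.4% were called higher. In bulk RNA, fewer cells expressing a gene and less RNA per cell cannot be told apart. The tables differed in how many counts ASNS and CBS held, relative to genes that share their sequence. ASNS had 79 to 167 counts in the A table and 828 to 3046 in the B table, and its read-through partner CZ1P-ASNS had 8 to 15 counts in A and 1048 to 3264 in B. CBS and its near-identical copy CBSL showed the same pattern, with 0 to 3 CBSL counts in A and 146 to 409 in B, so the values of both members are uncertain. The tables were normalized separately, and no level is compared between them.

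Differences were tested with edgeR over all genes, and a gene was called when its adjusted p was under 0.05 and its log2 fold change over 1 in size. PDS raised few members by that measure. In PEO1 B no member was called higher at 2 h or at 6 h, where 1.18 and 1.29% of all 17020 tested genes were, and 2 members were called lower at 2 h and 3 at 6 h (5.71 and 8.57%, against 6.39 and 6.83% of all genes). In PEO4 B 3 members were called higher at 2 h and 0 at 6 h (8.57 and 0%, against 6.4 and 6.26%), and 1 was called lower at 2 h and 4 at 6 h (2.86 and 11.4%, against 11 and 16.3%). None of these shares lay far above that of all genes, and 26 of the 35 members (74.3%, against 65.8% of all genes) were called in none of the 6 PDS comparisons within a line. In total 13 members (37.1%) were called in at least 1 of the 10 comparisons made, against 47.7% of the 15396 genes tested in both tables.

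**Figure D1:**
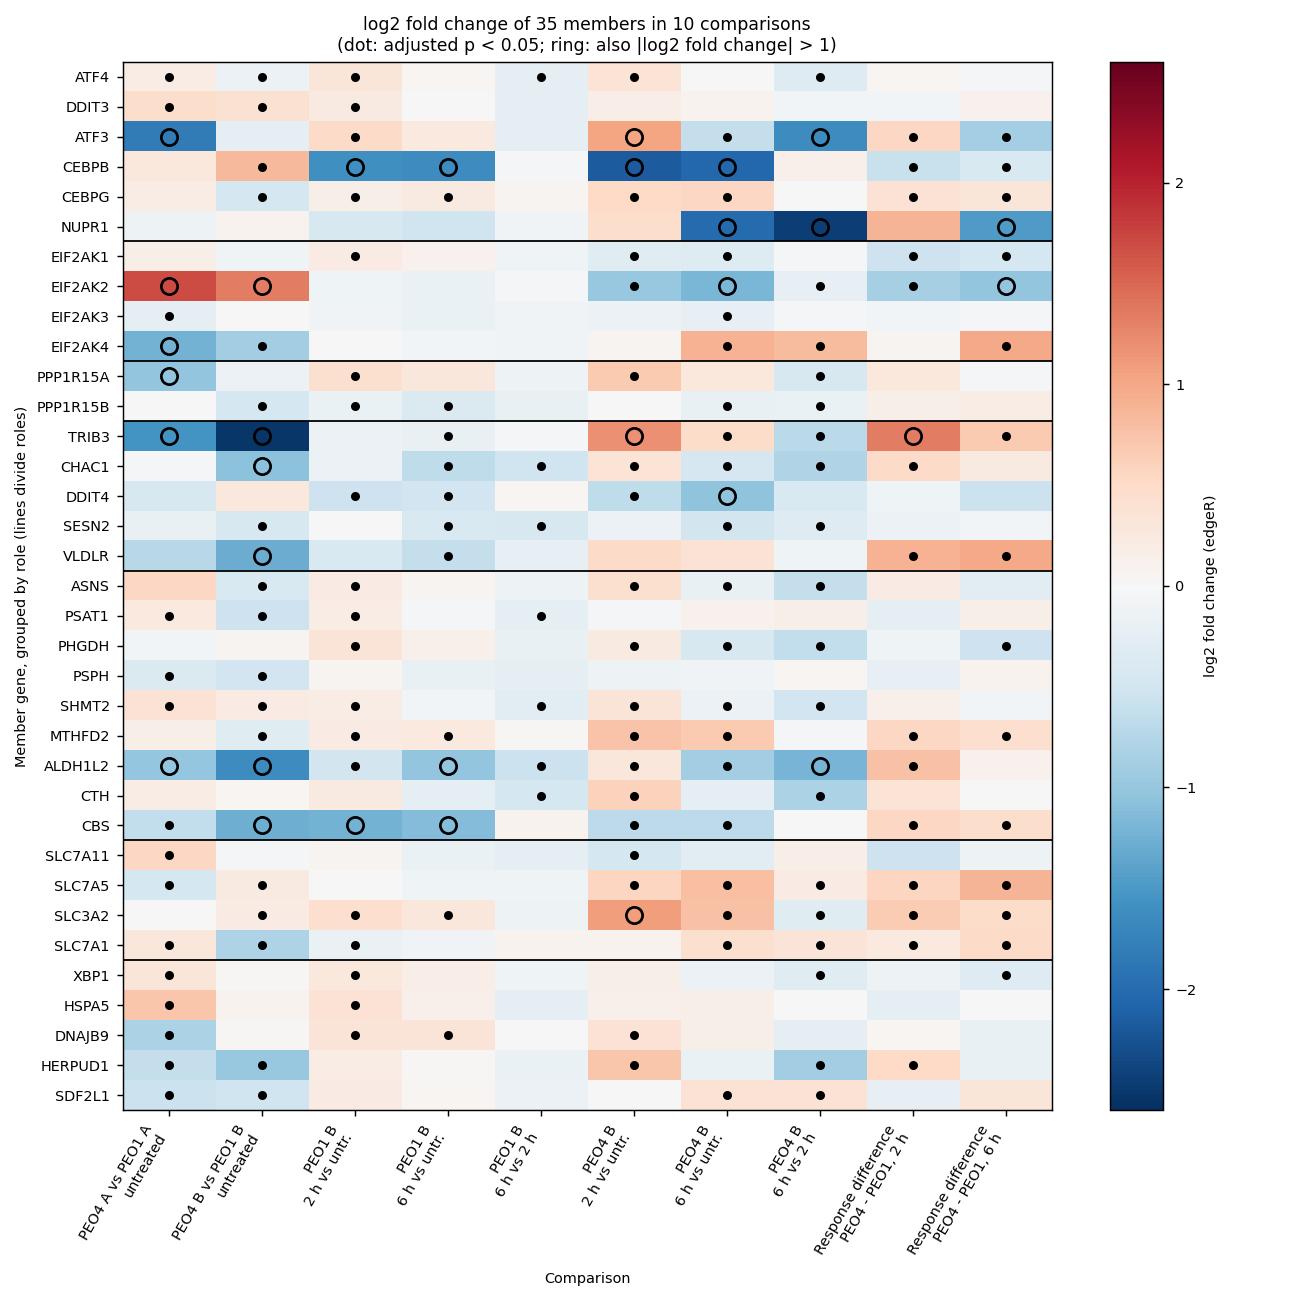
Log2 fold change (colour) of the 35 members (vertical axis, divided by role) in the 10 comparisons (horizontal axis), with a dot where adjusted p was under 0.05 and a ring where the log2 fold change was also over 1 in size. CEBPB is ringed blue in all 4 contrasts of PDS with untreated cells, and TRIB3, ATF3 and SLC3A2 are ringed red in PEO4 B at 2 h alone among the contrasts within a line.

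Smaller changes were common, and their direction turned between the time points. By adjusted p alone, 15 members rose and 6 fell in PEO1 B at 2 h (42.9 and 17.1%, against 26.4 and 26.2% of all genes), and 16 rose and 6 fell in PEO4 B at 2 h (45.7 and 17.1%, against 33.3 and 32%). At 6 h the balance was the other way, with 4 up and 9 down in PEO1 B (11.4 and 25.7%, against 27 and 26%) and 8 up and 15 down in PEO4 B (22.9 and 42.9%, against 34.6 and 35.2%). Member medians on the log2 scale were 0.16 at 2 h and -0.08 at 6 h in PEO1 B, and 0.23 and -0.16 in PEO4 B, where the medians of all genes lay between -0.03 and 0. The split at 2 h depended on the scaling. Library totals, used instead of TMM factors, moved the median of all genes by -0.15 at both times in PEO1 B and by -0.13 and -0.16 in PEO4 B, and gave 4 up and 11 down in PEO1 B at 2 h, 1 up and 18 down in PEO1 B at 6 h, 12 up and 11 down in PEO4 B at 2 h, and 7 up and 21 down in PEO4 B at 6 h. Upper-quartile scaling gave 7 up and 7 down in PEO1 B at 2 h and 3 up and 16 down at 6 h, and 7 up and 19 down in PEO4 B at 6 h. Without untreated replicate 2 of PEO1 B, 8 members rose there at 2 h.

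The fold changes of 6 h against 2 h compare treated libraries only, and in this contrast the members moved down. The adjusted p values also draw on the untreated B libraries, because the spread per gene was estimated over all groups. In PEO1 B 7 members fell and 0 rose by adjusted p (20 and 0%, against 2.98 and 3.96% of all genes), namely ATF4, CHAC1, SESN2, PSAT1, SHMT2, ALDH1L2 and CTH, and 0 passed the fold threshold as well, which 0.0999% of all genes passed downward and 0.0705% upward. In PEO4 B 17 members fell and 4 rose (48.6 and 11.4%, against 31.3 and 28.9%), and 3 of the falls, those of ATF3, NUPR1 and ALDH1L2, passed the fold threshold (8.57%, against 9.71%), and 0 of the rises did (2.27% of all genes). The 4 that rose were EIF2AK4, SLC7A5, SLC7A1 and SDF2L1. In PEO1 B 19 members had all 6 h libraries below all 2 h libraries, which was 54.3% of them against 15% of all genes, and in PEO4 B 20 members did (57.1%, against 35.2%). It held in both lines for 12 members (34.3%, against 7.38% of all genes), namely ALDH1L2, ASNS, ATF3, ATF4, CHAC1, CTH, PHGDH, PPP1R15A, PPP1R15B, SESN2, SHMT2 and SLC3A2. Member medians were -0.14 in PEO1 B and -0.21 in PEO4 B, against 0.00 and -0.02 for all genes, and library totals moved the latter by 0.00 and -0.03. The count in PEO1 B fell to 3 without replicate 1 at 6 h and to 4 without replicate 2 at 6 h, and rose to 16 when the 2 groups alone were fitted, whereas in PEO4 B it was 14 to 16 with any 1 library left out. Whether the lines differed in this contrast was not tested.

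**Figure D2:**
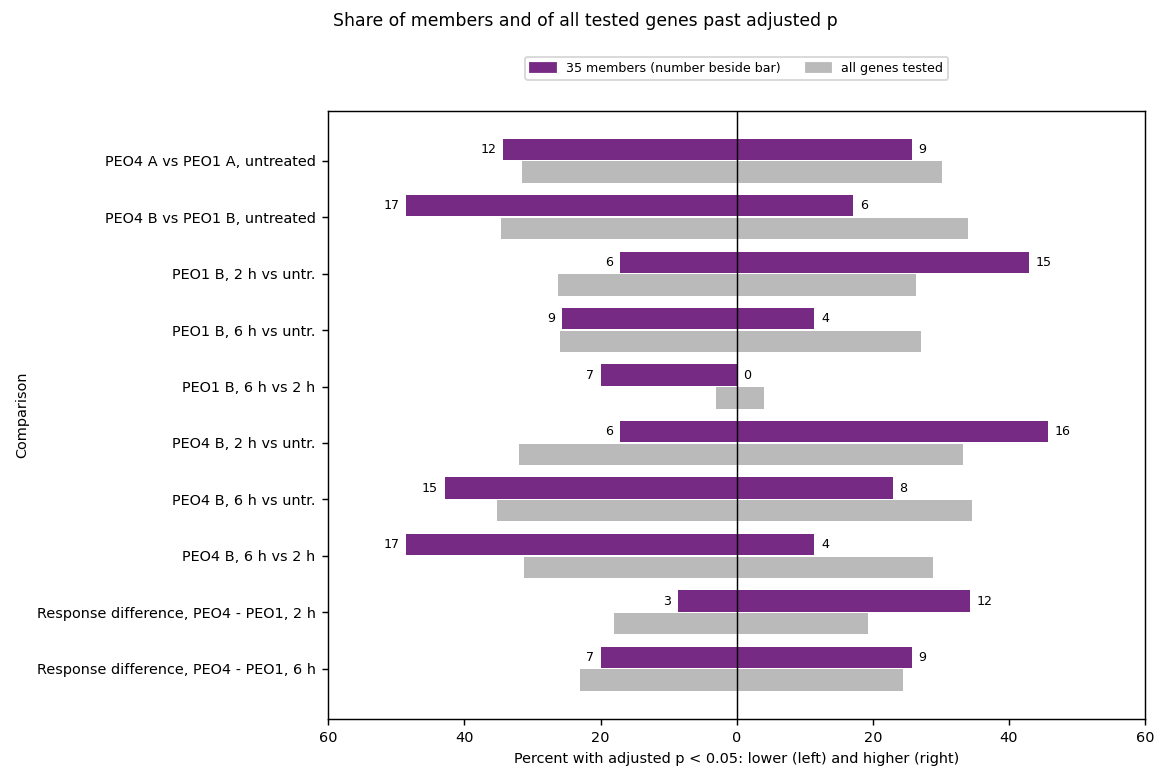
Percentage of the 35 members (purple, with the number of members) and of all tested genes (grey) with an adjusted p under 0.05, lower to the left and higher to the right, in each of the 10 comparisons. The purple bars exceed the grey ones on the right at 2 h in both lines and on the left for 6 h against 2 h in both lines.

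**Figure D3:**
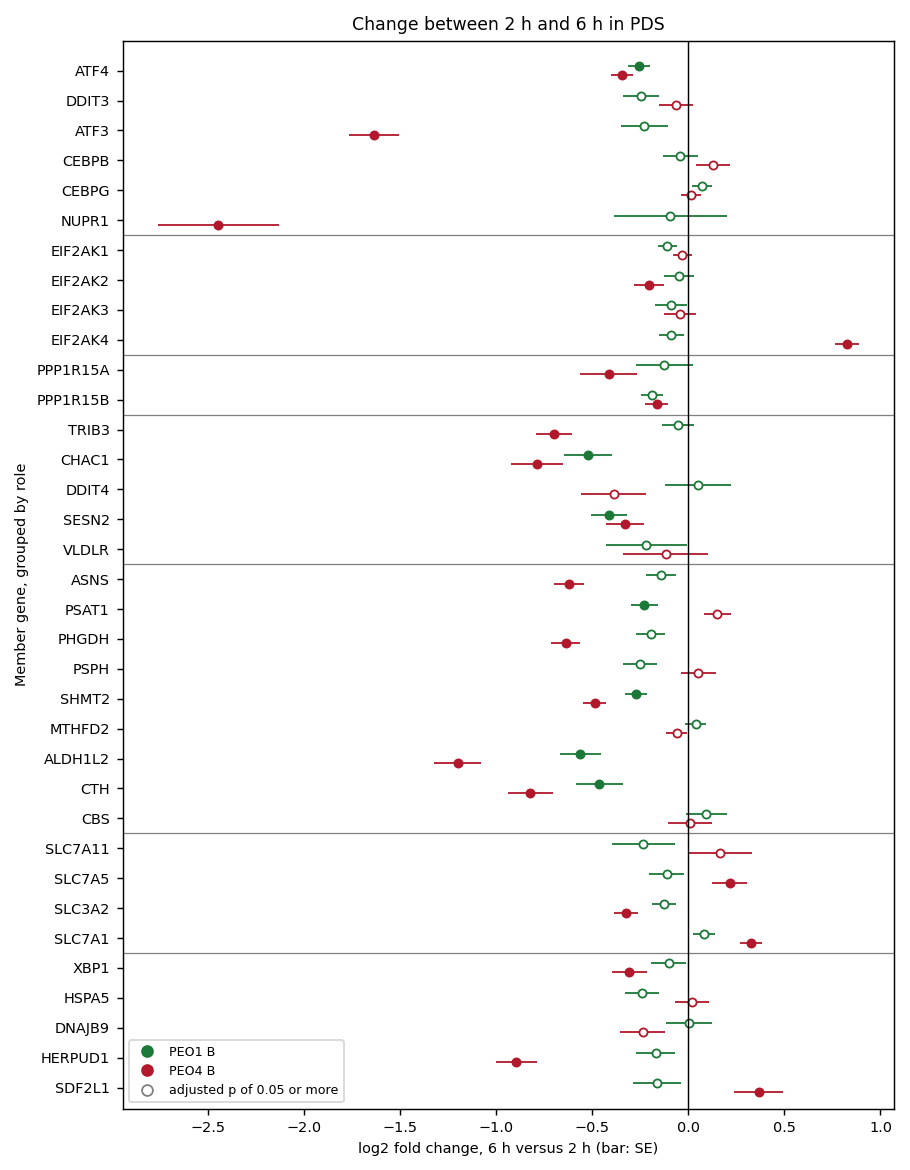
Log2 fold change of each member (vertical axis, divided by role) from 2 h to 6 h in PDS in PEO1 B (green) and PEO4 B (red), with the standard error as a bar and open points where adjusted p was 0.05 or more. The 7 filled green points all lie left of 0, as do 17 of the 21 filled red points.

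Below, library values are given for the members called somewhere, in the pair in which they were called (for VLDLR in B as ranges). As a background for statements that PDS and untreated libraries did not overlap, all libraries were higher in 30.7% and lower in 31.1% of all genes at 2 h in PEO1 B and 31.1 and 30.7% at 6 h, and in PEO4 B these shares were 32.9 and 31.3% at 2 h and 36.3 and 35.9% at 6 h. From 2 h to 6 h they were 16.3 and 15% in PEO1 B and 32.9 and 35.2% in PEO4 B. Small rises against untreated cells given below for PEO1 B, such as those of CEBPG, depend on the scaling. Library totals moved the median of all genes there by -0.15 at both times. With them 4 members rose by adjusted p at 2 h and 1 at 6 h.

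Of the 6 transcription factors, CEBPB, a C/EBP family member that pairs with ATF4 and also serves inflammatory and growth signals, was called lower in all 4 contrasts of PDS with untreated cells. The gene lies on chromosome 20 (chr20:50190583-50192690, plus strand, GRCh38.p14) and overlaps the antisense gene CEBPB-AS1, from which its reads cannot be separated without knowledge of the strand setting of the counting. In PEO1 B it was at 267, 263 and 311 CPM untreated, at 102, 95.2 and 82.7 CPM after 2 h and at 95.8, 95.2 and 81 CPM after 6 h. In PEO4 B the untreated libraries held 495, 497 and 517 CPM, those at 2 h held 99.5, 123 and 115 CPM, and those at 6 h held 125, 131 and 113 CPM. Every PDS library lay below every untreated library of its line, and the untreated PEO4 B libraries stood above all other B libraries. The log2 fold change was -1.59 ± 0.09 (SE) at 2 h and -1.63 ± 0.09 at 6 h in PEO1 B (adjusted p = 2.7e-11 and 1.7e-11), and -2.16 ± 0.09 and -2.03 ± 0.09 in PEO4 B (3.8e-14 and 6.9e-14). From 2 h to 6 h the log2 fold change was -0.04 in PEO1 B and 0.13 in PEO4 B (adjusted p = 0.87 and 0.22). The difference of responses, PEO4 B minus PEO1 B, was -0.57 ± 0.12 at 2 h (adjusted p = 0.0011), which was under the fold threshold. In the A pair, which was normalized separately, untreated CEBPB averaged 96.0 ± 6.45 CPM (SD, n = 3) in PEO1 A and 115.5 ± 38.1 CPM in PEO4 A. These levels are not compared with those of the B pair, and whether CEBPB differed between the pairs was not tested.

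ATF4, the central transcription factor of the response (chr22:39520559-39522686, plus strand), rose at 2 h and returned. It averaged 321.5 ± 17.9 CPM (SD, n = 3) in untreated PEO1 B, 399.8 ± 8.67 CPM at 2 h and 335.1 ± 4.3 CPM at 6 h, and 290.0 ± 13.9, 371.9 ± 26.5 and 293.0 ± 7.94 CPM in PEO4 B. In each line the 3 libraries at 2 h lay above all 3 untreated and all 3 at 6 h. The log2 fold change at 2 h was 0.31 ± 0.06 in PEO1 B (adjusted p = 5.8e-05) and 0.36 ± 0.06 in PEO4 B (6.2e-06), with no difference of response detected (0.04 ± 0.08, adjusted p = 0.7), and at 6 h it was 0.06 and 0.01 (adjusted p = 0.4 and 0.83).

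ATF3, a repressor and activator of the same family that is induced by ATF4 (chr1:212565407-212620777, plus strand), followed ATF4 in PEO4 B with a larger swing. Its levels there were 8.23, 8.44 and 5.53 CPM untreated, 14.2, 17.1 and 13.6 CPM at 2 h, and 4.27, 4.97 and 5.27 CPM at 6 h. The groups did not overlap: 2 h was high, and 6 h was below even the untreated cells. The rise at 2 h was 1.02 ± 0.13 on the log2 scale (adjusted p = 2.3e-07) and fell under the fold threshold in 7 of 15 alternative analyses (0.85 to 1.12 over all 15), although adjusted p stayed under 0.05 in each. At 6 h the log2 fold change was -0.62 ± 0.14 against untreated cells (adjusted p = 0.00047) and -1.63 ± 0.13 against 2 h (1.9e-10). In PEO1 B it was at 9.73, 7.27 and 9.04 CPM untreated, 12.2, 12.6 and 11.7 CPM at 2 h and 10.4, 9.98 and 10.8 CPM at 6 h. It rose there by 0.49 ± 0.13 at 2 h (adjusted p = 0.0026), whereas 0.26 ± 0.13 at 6 h did not pass (0.096). The responses differed between the lines, by 0.53 ± 0.18 at 2 h (adjusted p = 0.026) and by -0.88 ± 0.19 at 6 h (0.00058).

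NUPR1, a small chromatin-associated stress factor (chr16:28532708-28538974), fell at 6 h in PEO4 B. It was at 15.8, 11.9 and 26.9 CPM in the untreated libraries, at 22.5, 35.8 and 16.8 CPM after 2 h and at 4.2, 4.45 and 5.12 CPM after 6 h. The untreated and 2 h libraries overlapped and were widely spread, and the 6 h libraries were tightly grouped below both. The log2 fold change there was -1.99 ± 0.33 against untreated cells (adjusted p = 0.00011) and -2.45 ± 0.32 against 2 h (1.7e-05). In PEO1 B the levels were 18.4, 17.4 and 15.7 CPM untreated, 13.9, 12.4 and 12.1 CPM at 2 h and 11, 14.4 and 10.7 CPM at 6 h, and neither change passed the test (-0.42 and -0.52, adjusted p = 0.26 and 0.17). The response at 6 h differed between the lines by -1.48 ± 0.44 (adjusted p = 0.015).

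The remaining transcription factors moved little. CEBPG, another C/EBP partner of ATF4, rose in both lines at both times, by 0.16 and 0.23 in PEO1 B and by 0.53 and 0.54 in PEO4 B on the log2 scale (adjusted p = 0.015, 0.00083, 9.3e-09 and 4.2e-09), and the response was greater in PEO4 B at both times (adjusted p = 0.00055 and 0.002). DDIT3, which encodes the pro-apoptotic factor CHOP and overlaps MARS1, rose by 0.24 ± 0.10 at 2 h in PEO1 B (adjusted p = 0.042). In PEO4 B its log2 fold change was 0.16 at 2 h and 0.10 at 6 h, neither passing (adjusted p = 0.13 and 0.35).

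**Figure D4:**
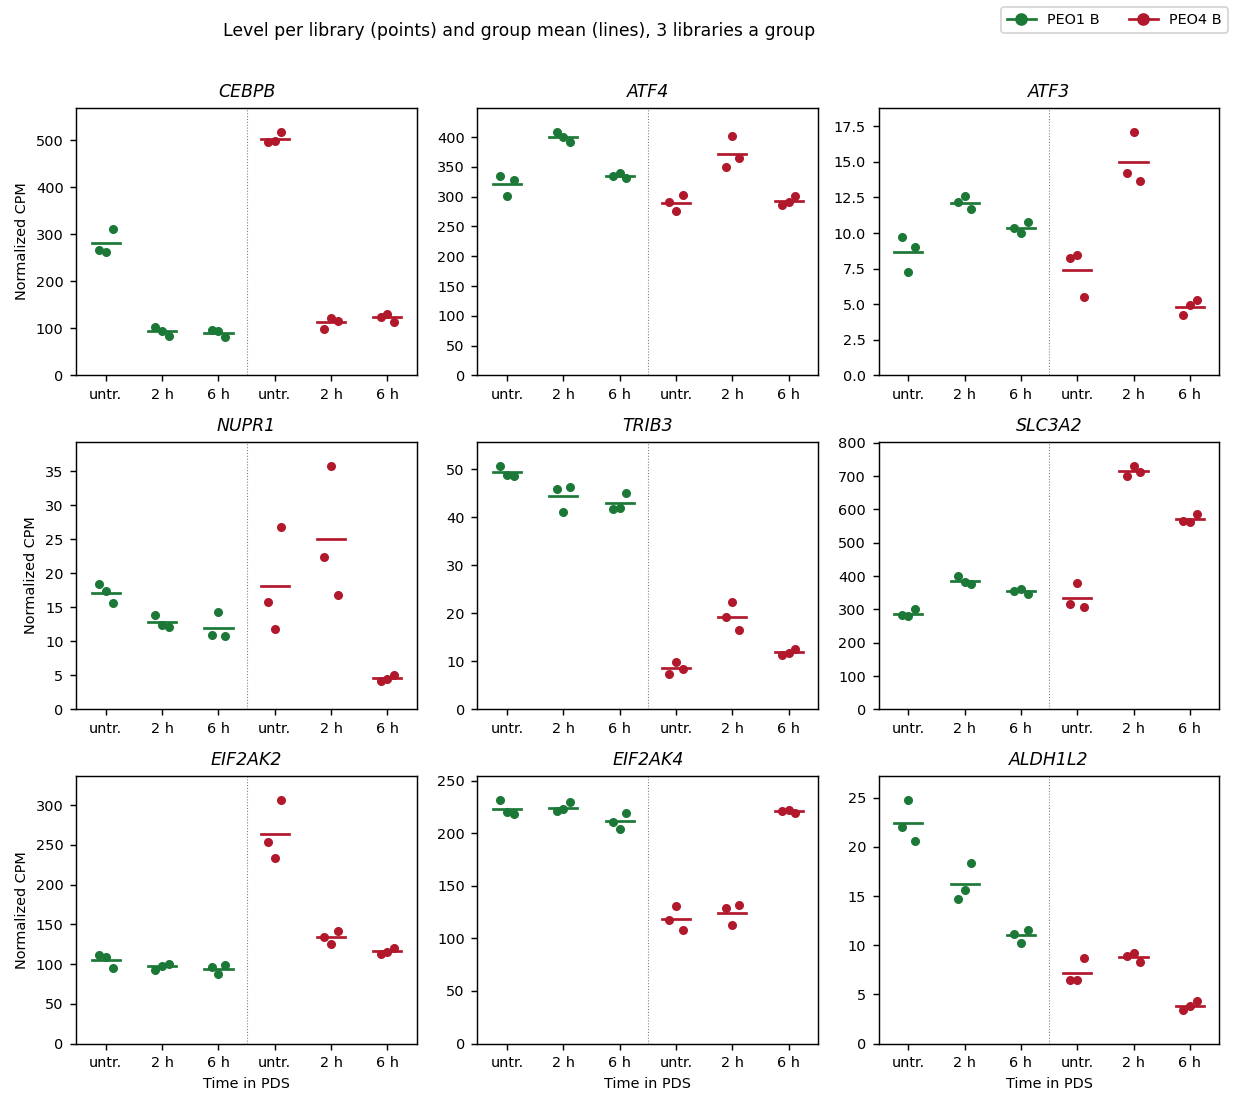
Normalized CPM (vertical axes, from 0) of 9 members in each library of PEO1 B (green) and PEO4 B (red), untreated and after 2 or 6 h in PDS (horizontal axes), with a line at the mean of the 3 libraries. CEBPB falls in both lines, and ATF4, ATF3 and SLC3A2 peak at 2 h in both, with larger rises of ATF3 and SLC3A2 in PEO4 B. TRIB3 peaks at 2 h in PEO4 B, while NUPR1 drops and EIF2AK4 climbs there at 6 h.

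Among the 4 eIF2alpha kinases, EIF2AK2 and EIF2AK4 responded in PEO4 B in opposite directions. EIF2AK2 encodes PKR, which senses double-stranded RNA and is itself interferon-inducible (chr2:37099210-37156980, minus strand, overlapping GPATCH11). PEO4 B libraries held 253, 234 and 306 CPM untreated, 135, 125 and 141 CPM at 2 h and 113, 115 and 120 CPM at 6 h, so that treated and untreated libraries did not overlap. The change was -0.98 ± 0.08 at 2 h (adjusted p = 2e-10) and -1.19 ± 0.08 at 6 h (6.1e-12). PEO1 B held 112, 109 and 95.6 CPM untreated, 93.1, 98 and 101 CPM at 2 h and 96.1, 87.6 and 98.3 CPM at 6 h, and -0.12 and -0.17 did not pass (adjusted p = 0.23 and 0.086). The difference of responses was -0.87 ± 0.11 at 2 h (adjusted p = 1.9e-06) and -1.02 ± 0.11 at 6 h (1.3e-07), and the latter fell under the fold threshold without PEO1 B replicate 3 at 6 h, without PEO1 B untreated replicate 3 or without PEO4 B untreated replicate 3.

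EIF2AK4 encodes GCN2, the sensor of uncharged tRNA (chr15:39934115-40035591, plus strand). In PEO4 B it was at 117, 131 and 108 CPM untreated and at 128, 113 and 132 CPM after 2 h, which overlapped, and then at 221, 222 and 219 CPM after 6 h, above all other libraries of that line. The rise at 6 h was 0.90 ± 0.06 against untreated cells (adjusted p = 7.5e-12) and 0.83 ± 0.06 against 2 h (1.3e-10), and the 6 h values fell within the range of PEO1 B. The latter stayed between 204 and 231 CPM in its 9 libraries, with log2 fold changes of 0.01 and -0.08 (adjusted p = 0.94 and 0.29), and the responses differed at 6 h by 0.98 ± 0.09 (4.5e-09). EIF2AK1, the heme-regulated kinase HRI, rose in PEO1 B at 2 h by 0.22 ± 0.05 (adjusted p = 0.0006) and fell in PEO4 B by 0.31 and 0.34 (7.4e-06 and 1.4e-06), and EIF2AK3, which encodes the ER kinase PERK, fell by 0.21 ± 0.09 in PEO4 B at 6 h (0.037).

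PPP1R15A (GADD34), the inducible subunit that directs a phosphatase to eIF2alpha and so ends the response, rose at 2 h in both lines. In PEO4 B it was at 79, 71.5 and 43.5 CPM untreated, 97.7, 108 and 106 CPM at 2 h and 82.5, 74.4 and 77.1 CPM at 6 h. Replicate 3 was the lowest of the untreated libraries, and the 2 h libraries lay above all others. The log2 fold change at 2 h was 0.69 ± 0.15 (adjusted p = 0.0012), and from 2 h to 6 h it was -0.41 ± 0.15 (0.027). In PEO1 B the levels were 75.7, 64.4 and 75.6 CPM untreated, 102, 93 and 93.4 CPM at 2 h and 85.7, 88.1 and 91.1 CPM at 6 h, a rise of 0.42 ± 0.15 at 2 h (adjusted p = 0.031) and 0.30 ± 0.15 at 6 h, which did not pass (0.11). PPP1R15B, the constitutive counterpart, fell in PEO1 B at both times (-0.18 and -0.37, adjusted p = 0.013 and 1.1e-05) and in PEO4 B at 6 h (-0.18, 0.0081).

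The 5 stress effectors were split. TRIB3, a pseudokinase induced by ATF4 and CHOP that feeds back on both (chr20:380760-397559, plus strand), rose in PEO4 B, from 7.4, 9.84 and 8.34 CPM untreated to 19.2, 22.3 and 16.5 CPM at 2 h, and was at 11.4, 11.7 and 12.6 CPM at 6 h. The groups did not overlap. The log2 fold change was 1.18 ± 0.10 at 2 h (adjusted p = 4e-10) and 0.48 ± 0.11 at 6 h (0.0003). In PEO1 B the levels were 50.7, 48.8 and 48.5 CPM untreated, 46, 41.2 and 46.4 CPM at 2 h and 41.7, 42 and 45.1 CPM at 6 h, all well above PEO4 B, with a log2 fold change of -0.15 at 2 h that did not pass (adjusted p = 0.15) and -0.20 at 6 h (0.049). The difference of responses was 1.33 ± 0.13 at 2 h (adjusted p = 2.9e-08) and 0.68 ± 0.14 at 6 h (0.00022).

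DDIT4 (REDD1), an inhibitor of mTORC1 signalling, and SESN2, which links amino acid shortage to mTORC1, did not share that rise. DDIT4 was at 177, 172 and 254 CPM in untreated PEO4 B, 120, 153 and 109 CPM at 2 h and 91.3, 96.1 and 105 CPM at 6 h, and all PDS libraries were below the untreated ones. It fell by 0.66 ± 0.17 at 2 h (adjusted p = 0.0041) and by 1.05 ± 0.17 at 6 h (0.0001), which was under the fold threshold without PEO4 B replicate 1 at 6 h or without untreated replicate 3. In PEO1 B it was at 155, 208 and 139 CPM untreated, 119, 114 and 111 CPM at 2 h and 113, 118 and 126 CPM at 6 h, and fell by 0.54 and 0.49 (adjusted p = 0.017 and 0.028). SESN2 fell at 6 h in both lines (-0.39 and -0.47, adjusted p = 0.0016 and 0.00027) and its changes at 2 h did not pass (0.02 and -0.14, 0.89 and 0.22).

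CHAC1, which degrades glutathione, rose and fell in PEO4 B. It was at 9.48, 8.14 and 11.1 CPM untreated, at 11.5, 15.1 and 10.4 CPM at 2 h, overlapping the former, and at 6.18, 8.02 and 7.24 CPM at 6 h, below both. It changed by 0.36 ± 0.14 at 2 h (adjusted p = 0.028) and -0.43 ± 0.15 at 6 h (0.012). In PEO1 B it went from 20.6, 19.9 and 19.5 CPM through 16.7, 17.9 and 19.5 CPM at 2 h to 12.1, 11 and 14.6 CPM at 6 h, with -0.15 at 2 h (adjusted p = 0.35) and -0.67 ± 0.13 at 6 h (0.00016). VLDLR, a lipoprotein receptor that ATF4 is known to induce and that overlaps VLDLR-AS1, was near the limit of detection in the B pair (0.653 to 2.81 CPM) and fell in PEO1 B at 6 h (-0.62 ± 0.21, adjusted p = 0.018).

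The 9 enzymes of amino acid synthesis and mitochondrial one-carbon metabolism formed the largest role group. By adjusted p alone, at 2 h 5 of them rose and 2 fell in PEO1 B and 6 rose and 1 fell in PEO4 B, where 26.4 and 33.3% of all genes rose. At 6 h 1 rose and 2 fell in PEO1 B and 1 rose and 5 fell in PEO4 B, where 27 and 34.6% of all genes rose and 26 and 35.2% fell. The member that passed as higher at 6 h in both lines was MTHFD2, a mitochondrial folate enzyme whose gene overlaps SLC4A5. It averaged 152.1 ± 10.8 CPM (SD, n = 3) in untreated PEO4 B, 255.1 ± 2.47 CPM at 2 h and 244.8 ± 6.96 CPM at 6 h, a rise of 0.75 ± 0.06 and 0.69 ± 0.06 (adjusted p = 2.5e-11 and 7.1e-11), and 190.3 ± 12.2, 220.0 ± 2.34 and 226.0 ± 2.72 CPM in PEO1 B (0.21 and 0.25, 0.0026 and 0.00052). The response was greater in PEO4 B at both times (differences of 0.54 and 0.44, adjusted p = 7.1e-06 and 6.2e-05). The serine synthesis enzymes PHGDH and PSAT1, and SHMT2, which moves the serine carbon into folate, rose at 2 h in PEO1 B by 0.33, 0.19 and 0.20 (adjusted p = 0.00061, 0.022 and 0.0056). In PEO4 B PHGDH and SHMT2 rose by 0.23 and 0.34 at 2 h (0.0098 and 1.8e-05) and were below untreated cells at 6 h (-0.41 and -0.15, 2.9e-05 and 0.024). PSPH, the last enzyme of serine synthesis, passed the test in none of the 6 PDS comparisons.

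ALDH1L2, a mitochondrial formyl-folate dehydrogenase, had a different course in each line. In PEO1 B it declined stepwise from 22, 24.7 and 20.6 CPM through 14.7, 15.6 and 18.4 CPM at 2 h to 11.2, 10.2 and 11.6 CPM at 6 h, and no group overlapped another. This was a log2 fold change of -0.47 ± 0.11 at 2 h (adjusted p = 0.00059) and -1.03 ± 0.11 at 6 h (2.4e-08), the latter under the fold threshold without replicate 2 of either group. In PEO4 B it was at 6.49, 6.43 and 8.66 CPM untreated, 8.89, 9.2 and 8.28 CPM at 2 h, overlapping the former, and 3.39, 3.78 and 4.34 CPM at 6 h, below both. It rose by 0.29 ± 0.12 at 2 h (adjusted p = 0.043) and fell by 0.91 ± 0.13 at 6 h (1.4e-06), and from 2 h to 6 h it fell by 1.20 ± 0.12 (1.3e-08). The responses differed at 2 h by 0.76 ± 0.16 (adjusted p = 0.00062).

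CBS and CTH make cysteine from homocysteine. CBS, with the limit on its counting given above, was at 19.8, 19.8 and 20.4 CPM in untreated PEO1 B, 8.5, 9.05 and 8.02 CPM at 2 h and 10.5, 8.64 and 8.13 CPM at 6 h. In PEO4 B it was at 8.88, 7.78 and 8.11 CPM untreated, 5.36, 4.64 and 5.35 CPM at 2 h and 4.48, 5.25 and 5.81 CPM at 6 h. Untreated libraries lay above all PDS libraries in both lines. The fall was 1.23 ± 0.10 and 1.13 ± 0.10 in PEO1 B (adjusted p = 9e-10 and 2.7e-09) and 0.69 and 0.68 in PEO4 B (1.4e-05 and 1.5e-05). CTH rose in PEO4 B at 2 h by 0.60 ± 0.12 (adjusted p = 0.00015) and fell from 2 h to 6 h by 0.82 in PEO4 B (1.9e-06) and by 0.46 in PEO1 B (0.021). ASNS, asparagine synthetase, whose promoter match is shown above, rose at 2 h by 0.21 ± 0.08 in PEO1 B (adjusted p = 0.026) and by 0.42 ± 0.08 in PEO4 B (6.8e-05) and fell in PEO4 B from 2 h to 6 h by 0.62 ± 0.08 (4.4e-07), on counts shared with its read-through partner.

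Of the 4 amino acid transporters 3 rose at 6 h in PEO4 B by adjusted p alone and 1 in PEO1 B, as did 34.6 and 27% of all genes. SLC3A2 encodes CD98, the heavy chain that carries SLC7A5 and SLC7A11 to the cell surface (chr11:62856109-62888860, plus strand). In PEO4 B it was at 317, 379 and 308 CPM untreated, 701, 730 and 713 CPM at 2 h and 564, 563 and 586 CPM at 6 h, with no overlap between groups. The rise was 1.09 ± 0.06 at 2 h (adjusted p = 2e-13, 0.97 with library totals) and 0.77 ± 0.06 at 6 h (7.1e-11). In PEO1 B it was at 283, 279 and 300 CPM untreated, 402, 382 and 376 CPM at 2 h and 354, 362 and 347 CPM at 6 h, a smaller rise of 0.43 ± 0.06 and 0.30 ± 0.06 (adjusted p = 3.4e-06 and 0.00024), and the responses differed by 0.67 and 0.47 (1.7e-06 and 0.00011). SLC7A5, the leucine transporter LAT1, averaged 1163 ± 251 CPM in untreated PEO4 B, 1720 ± 75 CPM at 2 h and 1998 ± 24 CPM at 6 h, rising by 0.56 and 0.78 (adjusted p = 1.6e-05 and 1.7e-07), whereas 0.01 and -0.11 in PEO1 B did not pass (0.97 and 0.34). The difference of responses was 0.56 ± 0.13 at 2 h and 0.89 ± 0.13 at 6 h (adjusted p = 0.0018 and 1.1e-05). SLC7A1, which takes up arginine and lysine, rose in PEO4 B at 6 h by 0.42 ± 0.06 (adjusted p = 1e-06). SLC7A11, the cystine importer, fell in PEO4 B at 2 h by 0.47 ± 0.17 (adjusted p = 0.026), where untreated replicate 2 was at 11.3 CPM and replicates 1 and 3 at 20.7 and 22 CPM.

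In the ER arm 0 of the 5 members were called in a PDS comparison, and 65.8% of all genes were likewise called in none of the 6 within a line. HSPA5 encodes BiP, the main ER chaperone, and XBP1 the factor whose mRNA is spliced by IRE1, which gene counts do not show. In PEO1 B at 2 h, HSPA5 rose by 0.38 ± 0.09, XBP1 by 0.27 ± 0.09 and DNAJB9, a BiP co-chaperone, by 0.33 ± 0.13 (adjusted p = 0.0011, 0.018 and 0.03). In PEO4 B at 2 h the log2 fold changes of HSPA5 and XBP1 were 0.14 and 0.15 and did not pass (adjusted p = 0.17 and 0.18), while DNAJB9 rose by 0.38 ± 0.12 (0.0095). HERPUD1, an ER-associated degradation factor whose promoter stretch holds elements of both arms, also had a larger swing in PEO4 B. It averaged 17 ± 2.71 CPM untreated, 28.2 ± 2.13 CPM at 2 h and 15.2 ± 0.506 CPM at 6 h, which was 0.73 ± 0.11 at 2 h (adjusted p = 6.6e-06) and -0.90 ± 0.11 from 2 h to 6 h (3.6e-07). In PEO1 B its changes did not pass (0.20 and 0.03, adjusted p = 0.11 and 0.83), and the responses at 2 h differed by 0.53 ± 0.15 (0.0092). SDF2L1, an ER luminal partner of chaperones, rose in PEO4 B at 6 h by 0.38 ± 0.13 (adjusted p = 0.017). In a further list of 22 tested ER chaperones, folding and degradation genes, 0 were called in either direction in any of the 6 PDS comparisons, with medians of -0.03 to 0.17. Smaller changes went both ways. By adjusted p alone with library totals, 6 rose and 5 fell in PEO1 B at 2 h and 5 rose and 6 fell at 6 h. In PEO4 B 6 rose and 7 fell at 2 h and 5 rose and 8 fell at 6 h. Library totals moved the median of all genes by -0.15 at both times in PEO1 B and by -0.13 and -0.16 in PEO4 B. The shares of all genes past adjusted p with library totals were not determined.

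Between the lines' responses, 1 member was called higher in PEO4 B at 2 h (TRIB3, 2.86% against 6.1% of all genes) and 0 lower (4.92%), and at 6 h 0 were called higher (5.42%) and 2 lower (NUPR1 and EIF2AK2, 5.71% against 9.34%). By adjusted p alone, 12 responses were higher and 3 lower in PEO4 B at 2 h (34.3 and 8.57%, against 19.3 and 18%), and 9 were higher and 7 lower at 6 h (25.7 and 20%, against 24.4 and 23%). The 12 at 2 h were the transporters SLC7A5, SLC3A2 and SLC7A1, the effectors TRIB3, CHAC1 and VLDLR, the factors ATF3 and CEBPG, the enzymes MTHFD2, ALDH1L2 and CBS, and HERPUD1. A higher response is not always a rise. CBS fell in both lines, and less in PEO4 B, and neither SLC7A1 nor VLDLR passed as higher in PEO4 B at 2 h.

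The untreated lines were compared in each pair to see which members separated PEO4 from PEO1 without drug. In the A pair 1 member was called higher and 5 lower in PEO4 A (2.86 and 14.3%, against 12.6 and 13.1% of 15882 genes tested), and in the B pair 1 higher and 5 lower in PEO4 B (2.86 and 14.3%, against 12.2 and 12.6%). By adjusted p alone the counts were 9 and 12 in A (25.7 and 34.3%, against 30.1 and 31.6%) and 6 and 17 in B (17.1 and 48.6%, against 34 and 34.6%). Both pairs passed for 14 members (40%, against 48.5% of the 15396 genes tested in both tables). Of these, DDIT3, EIF2AK2 and SHMT2 were higher in PEO4 in both (8.57% of members, against 20.7% of genes). EIF2AK4, TRIB3, PSPH, ALDH1L2, CBS, HERPUD1 and SDF2L1 were lower in both (20%, against 21.7%), and ATF4, PSAT1, SLC7A5 and SLC7A1 went in opposite directions (11.4%, against 6%). Of the markers of other cell types, 4 of 7 tested were called lower in PEO4 A, against 13.1% of all genes. In PEO4 B 4 of 8 were called higher and 1 lower, against 12.2 and 12.6%. Some were at trace level, with PECAM1 and VWF at 1.24 and 0.733 CPM on average in untreated PEO4 B and SYP at 0.388 CPM in PEO1 A. The part of these markers in the results was not tested. Without drug, libraries of the lines did not overlap for 33.3% (higher) and 34.6% (lower) of all genes in A and for 33.8 and 34.7% in B. The pairs differ in BRCA2 status of PEO1, medium and library depth, which cannot be told apart, and the difference between the pairs was not tested.

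EIF2AK2 was the member called higher in both pairs. PEO4 A held 557, 559 and 521 CPM against 168, 172 and 167 CPM in PEO1 A, a log2 fold change of 1.69 ± 0.07 (adjusted p = 1.4e-09), and in the B pair, with the levels given above, it was 1.33 ± 0.08 (7.2e-13). TRIB3 was called lower in both. It was at 16.7, 13.2 and 14.9 CPM in PEO4 A and 43.3, 43 and 45.8 CPM in PEO1 A (-1.56 ± 0.10, adjusted p = 5.3e-08), and differed by -2.54 ± 0.10 in the B pair (6.5e-17). ALDH1L2 was at 27.8, 24.3 and 25 CPM in PEO4 A and 48.2, 55.6 and 52.4 CPM in PEO1 A (-1.02 ± 0.09, adjusted p = 8.7e-07, and under the fold threshold in 4 of 14 alternatives), and differed by -1.64 ± 0.12 in B (6.4e-12). EIF2AK4 was at 107, 98.1 and 92.4 CPM in PEO4 A and 231, 234 and 235 CPM in PEO1 A (-1.23 ± 0.08, adjusted p = 2.8e-08), and its difference in B of -0.91 ± 0.06 (4.1e-12) was under the fold threshold. In none of these did the libraries of the lines overlap.

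Other members were called in 1 pair. ATF3 was at 4.82, 5.76 and 5.33 CPM in PEO4 A and 18.7, 19.3 and 18 CPM in PEO1 A (-1.82 ± 0.12, adjusted p = 6.3e-08), while the untreated B libraries overlapped (-0.23 ± 0.14, 0.15). PPP1R15A was at 40.5, 36.7 and 40.1 CPM in PEO4 A and 80.5, 80.5 and 78 CPM in PEO1 A (-1.03 ± 0.07, adjusted p = 1.3e-07, under the fold threshold with upper-quartile scaling or without PEO4 A replicate 2), and -0.15 in B did not pass (0.4). CHAC1, VLDLR and CBS were called lower in PEO4 B (-1.06 ± 0.14, -1.29 ± 0.25 and -1.27 ± 0.11, adjusted p = 5.6e-07, 5.4e-05 and 1.6e-10), CHAC1 no longer past the fold threshold without PEO4 B replicate 2. CBS was lower in PEO4 A too, by adjusted p alone (-0.64 ± 0.26, adjusted p = 0.046). In the A pair CHAC1 overlapped between the lines at 8.43, 11.5 and 12.4 CPM in PEO1 A and 9.78, 11.8 and 9.98 CPM in PEO4 A, and VLDLR at 8.93, 8.65 and 6.63 CPM and at 2.5, 6.66 and 5.75 CPM, with PEO4 A replicate 1 lowest. In untreated B, VLDLR had 13 to 27 counts in PEO4 B and 48 to 64 in PEO1 B. HSPA5 was higher in PEO4 A by 0.73 ± 0.09 (adjusted p = 2.4e-05), and 0.09 in B did not pass (0.39).

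**Figure D5:**
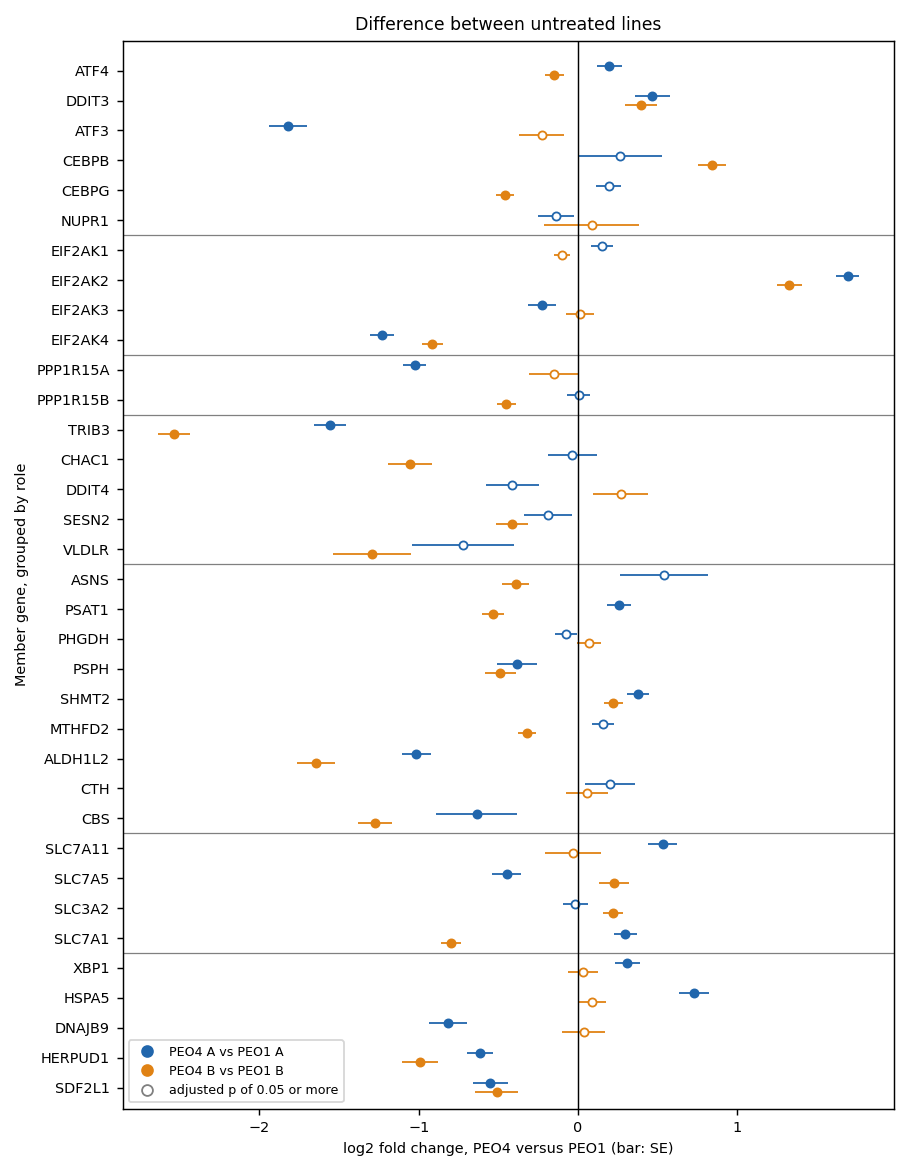
Log2 fold change of PEO4 against PEO1 (horizontal axis) for each member (vertical axis, divided by role) in the untreated A pair (blue) and B pair (orange), with the standard error as a bar and open points where adjusted p was 0.05 or more. EIF2AK2 lies to the right and TRIB3 and ALDH1L2 to the left in both pairs, while ATF3 is far left in the A pair only.

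Neighbouring genes of the pathway were counted from lists. Of 25 tested further ATF4 target genes, 3 were called higher and 3 lower in PEO4 B at 2 h, 0 higher and 10 lower at 6 h, and 0 higher and 5 lower from 2 h to 6 h. Of all genes, 6.4 and 11% were called higher and lower at 2 h, 6.26 and 16.3% at 6 h, and 2.27 and 9.71% from 2 h to 6 h. Named by the rule for these lists, VEGFA, the angiogenic growth factor, and SLC6A9, a glycine transporter, fell at 6 h (-1.72 ± 0.09 and -1.68 ± 0.12, adjusted p = 1.9e-13 and 1.7e-11), with a list median of -0.45. In PEO1 B 1 was called higher, CDKN1A, a cell cycle inhibitor that p53 also induces (1.04 ± 0.14 at 2 h and 1.08 ± 0.14 at 6 h, adjusted p = 5.1e-06 and 2.9e-06), and 1 lower at each time, with medians of -0.29 and -0.27. The 15 subunits and regulators of eIF2 and eIF2B had medians of 0.33 at both times in PEO1 B and of 0.41 and 0.56 in PEO4 B, where EIF2B3 was called higher at 6 h (1.34 ± 0.10, adjusted p = 2e-11). Of 18 aminoacyl-tRNA synthetases tested, which ATF4 is known to induce in part, 15 rose and 1 fell in PEO1 B at 2 h, 11 rose and 2 fell there at 6 h, 12 rose and 0 fell in PEO4 B at 2 h and 14 rose and 2 fell there at 6 h by adjusted p alone, where 26.4, 27, 33.3 and 34.6% of all genes rose. In the same order, 26.2, 26, 32 and 35.2% of all genes fell. With library totals 8 rose and 1 fell, 6 rose and 5 fell, 9 rose and 3 fell, and 12 rose and 3 fell, again in that order. From 2 h to 6 h 0 rose and 4 fell in PEO1 B and 11 rose and 5 fell in PEO4 B. Of all genes, 3.96% rose and 2.98% fell in PEO1 B, and 28.9% rose and 31.3% fell in PEO4 B. RARS1 was called higher in PEO4 B at 6 h (1.003 ± 0.062, 6.3e-13). CARS1 was called lower there at a mean log2 CPM under 3, outside the naming rule, and was chosen after its values were seen. Of 7 tested UPR sensors and proteases 1 was called in PEO4 B at 6 h, CREBRF, which was lower. It too had a mean log2 CPM under 3 and was named after its values were seen. By adjusted p alone with library totals, 0 of the 7 rose and 7 fell in PEO4 B at 2 h, and 0 rose and 6 fell at 6 h. In PEO1 B 0 rose and 3 fell at each time. These totals moved the median of all genes by -0.13 and -0.16 in PEO4 B and by -0.15 in PEO1 B. The shares of all genes past adjusted p with them were not determined, so the counts of the 7 have no background.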

How the data were processed

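Total RNA from 24 cultures was sequenced after poly(A) selection. Per the labels, FastQC, fastp, STAR and featureCounts were used with hg38, and the authors deposited raw counts per gene in 1 table for each pair. Versions, annotation, and the strand and multiple-mapping settings were not given in the sources used here. Lines without any count (2 in A, 1 in B) were left out. Each table was fitted by itself with edgeR 4.0.16 (R 4.3.3; TMM scaling, filterByExpr with a minimum count of 10, robust quasi-likelihood F test, 1 mean per group, all libraries of a table, Benjamini-Hochberg adjustment over 15882 genes in A and 17020 in B). The study's own tool, DESeq2 (1.42.0), was an alternative. CPM are counts scaled by the TMM-adjusted library size, and compare 1 gene between libraries, not genes with each other. Called means adjusted p under 0.05 and a log2 fold change over 1 in size. Replicates are biological by the design text. They differed by more than sampling noise (chi-square per degree of freedom of at least 2.13). The p-values set each effect against a spread between replicates, estimated per gene over all groups of a table. In B these are more than the groups compared. With 3 against 3 libraries an exact permutation test cannot go below p = 0.1, so none was used. Members, roles and lists were chosen with earlier results of these data known. Values per library are given for members called in at least 1 comparison, for the pair in which they were called, and as ranges for VLDLR in B. Of each list at most the 2 called genes with the largest fold at a mean log2 CPM of at least 3 are named. CARS1 and CREBRF are named outside this rule. Gene positions and promoters are from RefSeq (GRCh38.p14).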

Additional observations from a re-analysis of the deposited data

Results flagged for a closer look

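The test of the difference between the responses of the B lines passed both thresholds for 3 members. TRIB3 at 2 h responded more in PEO4 B by 1.33 ± 0.13 on the log2 scale (adjusted p = 2.9e-08), rising there in 3 of 3 libraries above all untreated ones, and the difference was 1.21 to 1.44 in 21 alternative analyses. NUPR1 at 6 h gave a difference of -1.48 ± 0.44 (adjusted p = 0.015), with a range of -1.70 to -1.08 and a largest adjusted p of 0.038 over 21 alternatives. EIF2AK2 at 6 h gave -1.02 ± 0.11 (adjusted p = 1.3e-07), with a range of -1.11 to -0.90. The untreated libraries enter each of these differences, and their depth and share of ribosomal RNA counts differed from those of PDS libraries in both lines; the part of these in the results was not tested.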

How the results depend on the processing

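Every call listed for a member kept its direction and an adjusted p under 0.05 in each alternative run, and 31 calls in all were followed. Most counts of called members were within 1.5 times of those reported. Without the fold threshold they were 9 higher and 12 lower for the A lines, 6 and 17 for the untreated B lines, 15 and 6 for PEO1 B at 2 h, 4 and 9 at 6 h, 0 and 7 from 2 to 6 h, 16 and 6 for PEO4 B at 2 h, 8 and 15 at 6 h, 4 and 17 from 2 to 6 h, 12 and 3 for the difference of responses at 2 h and 9 and 7 at 6 h. In PEO4 B at 2 h 1 was called higher by library totals, and 2 were called lower by library totals, upper-quartile scaling, DESeq2 size factors, the DESeq2 Wald test or a filter of 1 CPM in 3 libraries. Upper-quartile scaling called 3 lower in A. For the difference at 6 h, 1 was called higher with no filter on low counts or with the replicate block, and 1 lower at an adjusted p under 0.01. The cause was not tested.

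With 1 library left out, the calls (higher, then lower) ranged over 1 to 1 and 4 to 5 in A, 1 to 1 and 4 to 6 in untreated B, 0 to 0 and 2 to 2 in PEO1 B at 2 h, 0 to 0 and 2 to 3 at 6 h, 0 to 0 and 0 to 0 from 2 to 6 h, 2 to 3 and 1 to 2 in PEO4 B at 2 h, 0 to 0 and 3 to 5 at 6 h, 0 to 0 and 3 to 3 from 2 to 6 h, 1 to 2 and 0 to 0 for the difference at 2 h, and 0 to 2 and 1 to 2 at 6 h. By adjusted p alone, the difference at 2 h had 3 lower, 5 without PEO4 B replicate 3 at 2 h and 6 without PEO4 B untreated replicate 2, and PEO4 B from 2 to 6 h had 4 higher, 2 without replicate 2 of either group. Replicates with the same number showed no clear common deviation (r of -0.17 to 0.19 in B and -0.02 to 0.04 in A). Replicates with different numbers had r of -0.16 to 0.19 in B and -0.04 to 0.01 in A. The genes used were those most variable over all libraries, so this check cannot settle whether the numbers pair the samples. The replicate block changed no other count by over 1.5 times. Low counts limit VLDLR in the B pair, and untreated B libraries were the shallowest.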
